A study of Caenorhabditis elegans with 12 samples.

Results

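Homeobox genes encode transcription factors that bind DNA through a homeodomain. The set described here holds every gene whose symbol starts with ceh, apart from ceh-18, together with the Hox genes lin-39, mab-5 and egl-5. That gives 66 of the 20222 genes listed in the deposited tables. Of these, 17 lie on chromosome X, 13 on II, 12 each on III and V, 8 on I and 4 on IV.

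Hox genes give cells their position along the head-to-tail axis, and their proteins bind DNA together with Pbx relatives. Cut, LIM, sine oculis, paired-like and NK homeobox proteins set the identity of single neuron classes, pharyngeal cells and other tissues in C. elegans. Most of these genes are known for work in the embryo, the larva or a small number of adult cells, so a whole adult offers few cells in which to read them.

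The series compared polyadenylated RNA from whole C. elegans of 4 strains, with 3 biological replicates each. N2 is the laboratory wild type. AV477 carries dsb-2(me96), AV157 carries spo-11(me44) and TY4986 carries htp-3(y428), and groups are named below by the mutated gene. The products of spo-11 and dsb-2 act in making meiotic double-strand breaks, and HTP-3 is a protein of the meiotic chromosome axis. Animals of all strains were kept at 20 °C on OP50 bacteria, picked as L4 larvae and collected on day 1 of adulthood. Each mutation was present in 1 strain only, so the mutation and any other difference between that strain and N2 cannot be told apart. Because whole animals were used, a change in the number of cells of a type and a change in RNA per cell cannot be told apart either.

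Depth ranged from 32422219 to 42527086 mapped reads per library, and for 1 kilobase of exon a single read came to between 0.0293 and 0.0437 TPM. TPM divides reads by exon length and sets every library to the same sum, so a rise of abundant genes lowers the values of all others. The dsb-2 transcript was 18.5 ± 1.43 TPM (SD, n = 3) in dsb-2 animals and 58.5 ± 3.64 in N2. It was 40.2 ± 3.16 TPM in spo-11 and 32.8 ± 10.7 in htp-3. The htp-3 transcript was 9.50 ± 2.82 TPM in htp-3 animals and 71.6 ± 5.42 in N2. It was 97.8 ± 14.1 TPM in dsb-2 and 31.3 ± 5.22 in spo-11. Both transcripts were thus lowest in their own mutant strain, but both were also lower than N2 in spo-11. The spo-11 transcript was 36.2 ± 2.18 TPM in spo-11 animals and 33.3 ± 11.2 in N2, so its level does not check that label.

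Together the 66 genes summed to 257 to 296 TPM for N2, 283 to 350 for dsb-2, 322 to 364 for spo-11 and 198 to 306 for htp-3. Between 25 and 28 of them reached 1 TPM in an N2 library, against 26 to 30 for dsb-2, 37 to 40 for spo-11 and 32 to 35 for htp-3. The spo-11 and htp-3 libraries therefore held more homeobox transcripts above this level than any N2 or dsb-2 library. Detection of all listed genes shifted the same way. At least 3860 genes were at 0 for every N2 and dsb-2 library. No htp-3 library had more than 3130 such genes, and no spo-11 library more than 2081. The higher counts are therefore not read as particular to homeobox genes. A gene was tested where at least 3 of the 12 libraries held at least 1 TPM, which 38 of the 66 genes did. Of these 38, 12 had an N2 mean under 1 TPM and passed through higher values in other strains, so counts over the 38 describe them and support nothing on their own.

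Differences were tested with limma on log2(TPM + 1), fitted over all 13650 genes that passed the same minimum, and a gene was called at a Benjamini-Hochberg adjusted p under 0.05. All fold changes below are differences on the log2(TPM + 1) scale with their standard errors, a scale that understates the change of low genes. In spo-11 animals 20 of the 38 genes rose and 5 fell (52.6% and 13.2%), while 55.6% of all genes tested rose and 22.1% fell. In htp-3 animals 15 rose and 5 fell (39.5% and 13.2%), beside 39.5% and 19.7% of all genes. The share of homeobox genes that rose was thus close to that of the transcriptome in both strains. Their median change was 0.72 in spo-11, beside 0.80 for all genes, and 0.27 in htp-3, beside 0.27 for all genes.

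These medians set the zero against which each gene is read. Scaling the libraries by the median ratio of their genes moved the median of all genes to 0.16 in spo-11 and 0.07 in htp-3. Under that scaling 15 homeobox genes rose and 14 fell in spo-11, beside 44.2% and 39.9% of all genes. In htp-3 animals 13 rose and 14 fell, beside 30.9% and 34.7% of all genes. No gene called higher under one scaling was called lower under the other. The genes thus divide into those that rose under both, those that fell under both and those whose call depends on the scaling. The rest were called under neither, 4 in spo-11 and 9 in htp-3. The 3 comparisons with N2 share its libraries, and their values are given side by side without a test of their likeness.

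**Figure D1:**
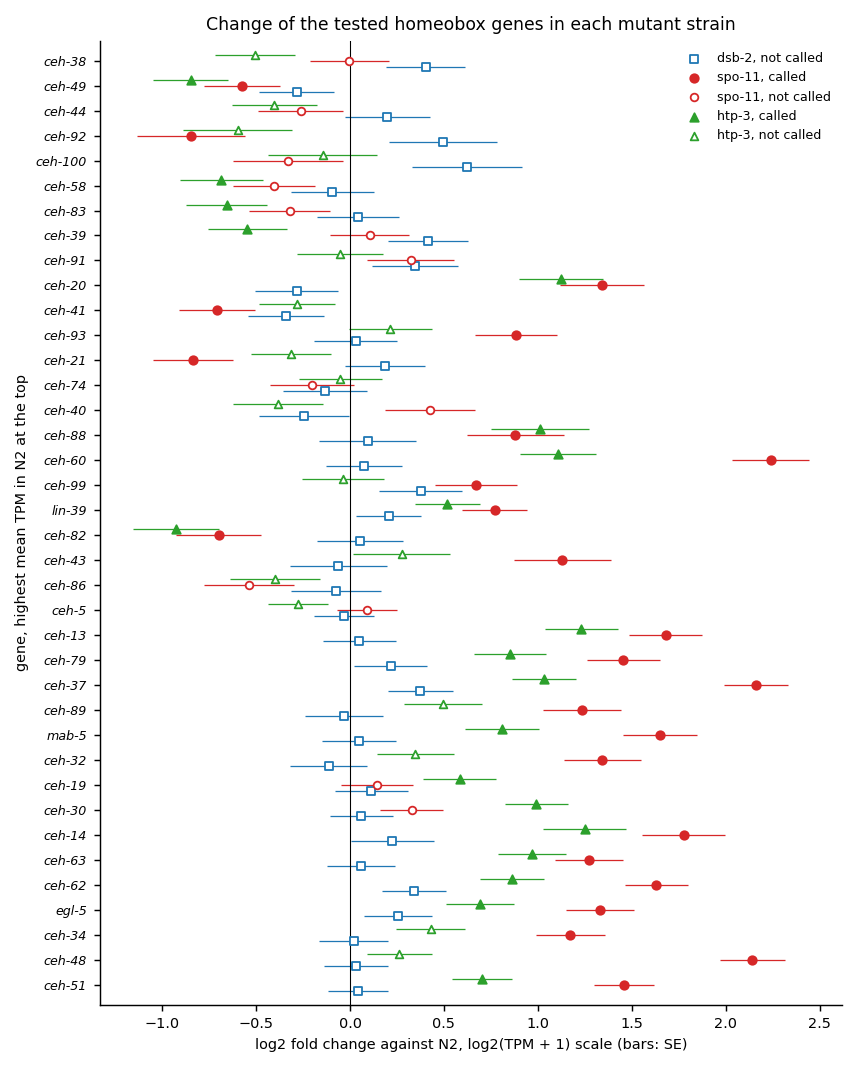
The plot shows, for the 38 homeobox genes tested, the log2(TPM + 1) fold change against N2 in dsb-2, spo-11 and htp-3 animals, with error bars of 1 standard error and filled symbols for calls at an adjusted p under 0.05. Genes are ordered by their mean TPM in N2, with the highest at the top. On this scale the genes range from ceh-60 at 2.24 in spo-11 to ceh-82 at -0.93 in htp-3.

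Marker genes of several tissues moved in the same libraries. Of 15 pan-neuronal genes, 14 were tested, and 14 rose in spo-11 and 12 in htp-3. Their summed level was 253 to 329 TPM for N2, 338 to 354 for dsb-2, 762 to 979 for spo-11 and 435 to 499 for htp-3. All 11 oocyte and germline markers fell in both strains, from sums of 7084 to 7499 TPM for N2 to 2526 to 2996 for spo-11 and 2422 to 5318 for htp-3. Of 6 body wall muscle markers, 6 rose in spo-11 and 5 in htp-3, with sums of 373 to 460 TPM for N2, 1395 to 2037 for spo-11 and 947 to 1335 for htp-3. Of 10 sperm markers, 9 rose in each strain, with sums of 14.7 to 68.3 TPM for N2, 859 to 1580 for spo-11 and 51.4 to 166 for htp-3. Under median-ratio scaling 9 sperm markers rose and 1 fell in spo-11, and 5 rose in htp-3. The 5 hypodermis markers were mixed: 4 rose and 1 fell in spo-11, and 1 rose and 2 fell in htp-3. Their sums were 57.3 to 70.3 TPM for N2, 59.5 to 66.3 for spo-11 and 39.3 to 54.8 for htp-3. Under median-ratio scaling 1 of them rose and 1 fell in spo-11. No gene of these lists was at 0 in all libraries of a strain. The part of these tissues in the homeobox values was not tested.

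The Hox genes of the cluster on chromosome III rose in both strains. All 4 were called higher in spo-11 and in htp-3, where 55.6% and 39.5% of all genes tested were called higher. Of the 4, mab-5 and egl-5 had an N2 mean under 1 TPM and passed the minimum through higher values in other strains. The count therefore supports nothing on its own. The summed level of the 4 was 4.51 to 6.33 TPM for N2, 5.37 to 7.62 for dsb-2, 17.1 to 21.7 for spo-11 and 11.5 to 13.98 for htp-3. The groups of spo-11 and htp-3 libraries overlapped neither with each other nor with N2 on this sum.

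The gene ceh-13 (chromosome III, bases 7555617 to 7558208) is the labial relative of the cluster and acts in the anterior of the embryo. It was at 1.07, 1.39 and 1.35 TPM in the N2 libraries, 1.04, 1.65 and 1.38 in dsb-2, 7.57, 5.08 and 6.37 in spo-11, and 3.68, 4.23 and 5.17 in htp-3. The values of spo-11 and htp-3 lay above every N2 value and overlapped with each other. Its level changed by 1.68 ± 0.19 in spo-11 (adjusted p = 1.31e-06) and by 1.23 ± 0.19 in htp-3 (adjusted p = 0.000147).

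Next to it, lin-39 (bases 7528641 to 7536632) patterns the middle of the body and the vulva. Its N2 libraries held 2.70, 3.26 and 3.11 TPM and those of dsb-2 3.44, 4.02 and 3.46. In spo-11 it was at 5.87, 5.85 and 5.81 TPM, and in htp-3 at 5.19, 4.26 and 4.85. Every library of both strains exceeded every N2 and dsb-2 library. The change was 0.77 ± 0.17 in spo-11 (adjusted p = 0.000817), close to the median of all genes, and 0.52 ± 0.17 in htp-3 (adjusted p = 0.0183). Under median-ratio scaling neither was called (0.09, adjusted p = 0.593, and 0.19, adjusted p = 0.313). The htp-3 call was also lost without N2 replicate 1 (adjusted p = 0.0652), without htp-3 replicate 1 (0.0609) and without htp-3 replicate 3 (0.0518).

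The gene mab-5 (bases 7776835 to 7783454), which directs the backward migration of a neuroblast and the patterning of the posterior body, held 0.551, 1.27 and 0.824 TPM in N2 and 0.634, 1.23 and 0.936 in dsb-2. It held 5.30, 4.14 and 5.10 TPM in spo-11 and 2.38, 1.74 and 2.71 in htp-3. The spo-11, htp-3 and N2 values formed 3 separate ranges. The change was 1.65 ± 0.20 in spo-11 (adjusted p = 1.88e-06) and 0.81 ± 0.20 in htp-3 (adjusted p = 0.00301). Set directly against spo-11, htp-3 animals were lower by -0.84 ± 0.20 (adjusted p = 0.00239).

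The tail Hox gene egl-5 (bases 7814380 to 7817127), an Abdominal-B relative, held 0.186, 0.416 and 0.416 TPM in N2 and 0.254, 0.713 and 0.881 in dsb-2. Its spo-11 libraries were at 2.95, 1.99 and 2.21 TPM and its htp-3 libraries at 0.923, 1.31 and 1.26. Again the spo-11, htp-3 and N2 values did not overlap, and the lowest htp-3 library lay just above the highest dsb-2 library. The change was 1.33 ± 0.18 in spo-11 (adjusted p = 6.64e-06) and 0.69 ± 0.18 in htp-3 (adjusted p = 0.00449). The difference between htp-3 and spo-11 was -0.64 ± 0.18 (adjusted p = 0.00827) and was not called under median-ratio scaling (-0.35, adjusted p = 0.0976) or with a pseudocount of 0.1 (adjusted p = 0.0634).

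Of the 3 Pbx relatives in the set, ceh-20 and ceh-60 rose in both strains and ceh-40 in neither. The protein of ceh-20 (chromosome III, bases 6979884 to 6981785) is the DNA-binding partner of the Hox proteins. It held 6.35, 9.83 and 8.16 TPM in N2, 5.39, 7.51 and 6.41 in dsb-2, 28.8, 17.8 and 20.2 in spo-11, and 16.4, 19.1 and 20.6 in htp-3. The ranges of spo-11 and htp-3 overlapped and stood above those of N2 and dsb-2. The change was 1.34 ± 0.22 in spo-11 (adjusted p = 5.48e-05) and 1.12 ± 0.22 in htp-3 (adjusted p = 0.000765).

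The gene ceh-60 (chromosome X, bases 6522596 to 6530148) acts with the Meis relative unc-62 on yolk protein genes in the adult intestine. Its N2 libraries held 2.42, 4.62 and 3.52 TPM, those of dsb-2 3.47, 3.92 and 3.60, those of spo-11 20.7, 18.9 and 20.2, and those of htp-3 7.79, 9.05 and 8.87. This placed every htp-3 library between the N2 and the spo-11 values. On the log2(TPM + 1) scale it had the highest fold change of the tested homeobox genes in spo-11, 2.24 ± 0.20 (adjusted p = 1.11e-07). It rose by 1.11 ± 0.20 in htp-3 (adjusted p = 0.000432). Its rank in spo-11 depends on the scale. With limma-voom on rebuilt reads its change there was 2.53, below those of ceh-48 (5.02) and ceh-51 (4.32), among others. Under median-ratio scaling ceh-48 and ceh-37 also stood above it. Against spo-11, ceh-60 was lower in htp-3 by -1.13 ± 0.20 (adjusted p = 0.000268). The partner gene unc-62 had a mean of 8.71 TPM in N2, 20.0 in spo-11 and 17.2 in htp-3. Of 8 intestine markers, 4 rose and 1 fell in spo-11 while 7 rose in htp-3, with sums of 5587 to 8129 TPM for N2, 9473 to 13179 for spo-11 and 11624 to 19785 for htp-3. Between htp-3 and spo-11 the intestine markers divided, with 3 higher in htp-3 (vit-6, act-5 and pho-1) and 1 lower (ifb-2), and the part of this tissue in ceh-60 was not tested. On the opposite strand ceh-60 shares 61 bases with ets-4 (5.78 TPM in N2, 14.95 in spo-11 and 15.1 in htp-3), and whether the counting used strand is not given in the sources used here.

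By contrast, ceh-40, the other Pbx relative, held 6.12, 5.27 and 5.36 TPM in N2, 10.3, 7.59 and 6.07 in spo-11, and 2.93, 5.18 and 4.24 in htp-3. Its changes against N2 were 0.42 (adjusted p = 0.119) and -0.39 (adjusted p = 0.175). Under median-ratio scaling they were -0.30 (adjusted p = 0.251) and -0.75 (0.0144), so that ceh-40 was called lower in htp-3. In htp-3 it was lower than in spo-11 by -0.81 ± 0.24 (adjusted p = 0.0117), a call that was lost under median-ratio scaling (adjusted p = 0.143), without spo-11 replicate 1 (0.0684) and without htp-3 replicate 1 (0.0585).

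**Figure D2:**
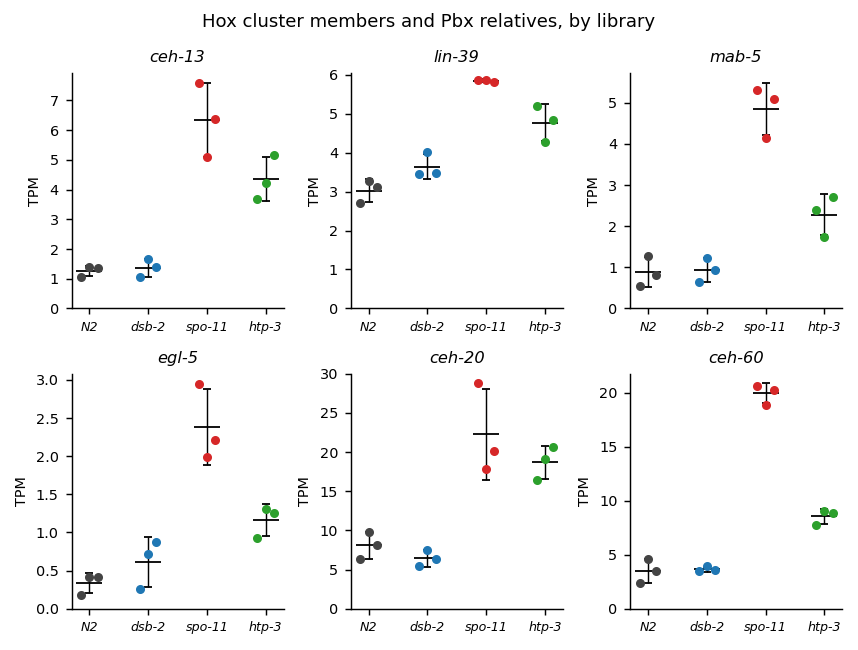
Each panel plots the TPM of 1 gene by library, with points for the 3 libraries of a strain and bars for the mean ± SD, for the 4 Hox genes and the Pbx relatives ceh-20 and ceh-60. In all 6 panels the spo-11 and htp-3 points lie above the N2 points, and for mab-5, egl-5 and ceh-60 the htp-3 points lie below the spo-11 points.

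The cut class, whose proteins carry cut domains beside the homeodomain, held the most abundant transcripts of the set and mostly did not rise. Of its 7 genes, 1 rose and 3 fell in spo-11 and 2 fell in htp-3, with median changes of -0.26 and -0.40. Of all genes tested, 22.1% fell in spo-11 and 19.7% in htp-3. Among those with a mean of at least 10 TPM, 37.9% and 34.3% fell. The abundant genes ceh-58, ceh-83, ceh-92 and ceh-100, outside this class, did not rise either. The counts are therefore not read as particular to the class. Their summed level was 117 to 132 TPM for N2, 132 to 162 for dsb-2, 109 to 113 for spo-11 and 63.8 to 112 for htp-3. Under median-ratio scaling 6 of the 7 fell in each strain, beside 39.9% of all genes in spo-11 and 34.7% in htp-3, and ceh-48 still rose in spo-11.

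The top gene of the whole set in N2 was ceh-38 (chromosome II, bases 6951640 to 6955399), a broadly expressed ONECUT gene. It held 46.2, 48.7 and 41.9 TPM in N2, 50.5, 60.9 and 71.9 in dsb-2, 44.8, 46.7 and 44.5 in spo-11, and 22.7, 44.3 and 31.6 in htp-3. The dsb-2 libraries all lay above N2, those of spo-11 within its range, and those of htp-3 spread widely with 2 below N2. None of the differences from N2 was called: 0.40 in dsb-2 (adjusted p = 0.514), -0.0048 in spo-11 (0.983) and -0.51 ± 0.21 in htp-3 (0.0507). In htp-3 the gene was called lower under median-ratio scaling (-0.92, adjusted p = 0.00156), with limma-voom (0.0176), with RPKM (0.0455), with a minimum of 5 TPM (0.0488), with a pseudocount of 0.1 (0.0493) and without htp-3 replicate 2 (-0.74, adjusted p = 0.00364). Against spo-11 it differed in htp-3 by -0.50 (adjusted p = 0.0642), which was called with the replicate number as a block (0.0427), with limma-voom (0.0281) and without htp-3 replicate 2 (0.00552).

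The CUX relative ceh-44 (chromosome III, bases 2530615 to 2546420) shares its locus with a transcript for a protein without a homeodomain, which a value per gene does not separate. It was at 22.5, 27.6 and 20.2 TPM in N2, 22.1, 32.9 and 26.3 in dsb-2, 19.7, 17.8 and 20.1 in spo-11, and 12.3, 22.98 and 18.3 in htp-3. All spo-11 values were below all N2 values, while the htp-3 values overlapped with N2. No difference from N2 was called on the TPM scale, and under median-ratio scaling it fell by 1.06 in spo-11 (adjusted p = 0.000105) and by 0.81 in htp-3 (adjusted p = 0.00186). It was also called lower in htp-3 without htp-3 replicate 2 (-0.60, adjusted p = 0.0304).

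One cut gene, ceh-49 (chromosome V, bases 6118332 to 6120206), fell in both strains. Its N2 libraries held 32.4, 23.2 and 25.1 TPM, those of dsb-2 21.2, 18.8 and 25.6, those of spo-11 16.8, 19.5 and 16.5, and those of htp-3 11.5, 16.9 and 15.1. Every spo-11 and htp-3 library was below every N2 library. The change was -0.57 ± 0.20 in spo-11 (adjusted p = 0.0165) and -0.85 ± 0.20 in htp-3 (adjusted p = 0.00251). The spo-11 call was lost without N2 replicate 1 (adjusted p = 0.0864) and without spo-11 replicate 3 (0.0565).

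The other ONECUT genes form a row on chromosome X. The genes ceh-41 (bases 1846608 to 1848675), ceh-21 (1848795 to 1852736) and ceh-39 (1853874 to 1856189) lie 119 and 1137 bases apart. In spo-11 animals ceh-41 fell by 0.71 (SE 0.20, adjusted p = 0.00474), from 7.39, 8.73 and 6.71 TPM in N2 to 4.79, 3.98 and 3.98. Its neighbour ceh-21 fell by 0.83 (SE 0.21, adjusted p = 0.00223), from 7.76, 6.43 and 7.50 TPM to 3.86, 3.66 and 3.31. For both genes no spo-11 library reached the lowest N2 library.

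The product of ceh-39 is one of the signals by which the embryo counts its X chromosomes, acting on the sex switch gene xol-1. Its N2 libraries held 16.1, 14.95 and 15.7 TPM, those of dsb-2 24.3, 17.4 and 22.1, those of spo-11 18.6, 17.3 and 14.7, and those of htp-3 7.57, 13.4 and 10.8. The spo-11 values spanned those of N2, at a difference of 0.10 (adjusted p = 0.662), which median-ratio scaling turned to -0.68 (adjusted p = 0.00984).

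In htp-3 animals ceh-39 was lower than N2 by -0.55 ± 0.21 (adjusted p = 0.0374), with every htp-3 library below every N2 library. This call was lost in 5 of 6 fits that each left out 1 N2 or htp-3 library. The adjusted p was 0.0902, 0.0597 and 0.0797 without N2 replicates 1, 2 and 3, and 0.163 and 0.0678 without htp-3 replicates 1 and 3. For ceh-41 (4.75, 6.88 and 6.70 TPM in htp-3) and ceh-21 (4.72, 6.79 and 5.44) the differences from N2 were -0.28 (adjusted p = 0.237) and -0.32 (0.209). Set against spo-11, ceh-39 was lower in htp-3 by -0.65 (adjusted p = 0.0197), while ceh-21 differed by 0.52 (0.0588; called with limma-voom, 0.0424, and without htp-3 replicate 1, 0.0454) and ceh-41 by 0.43 (0.0971; called without htp-3 replicate 1, 0.0406). The ceh-39 call was lost without spo-11 replicate 1 (0.0768), spo-11 replicate 2 (0.0550) or htp-3 replicate 1 (0.0802) and under median-ratio scaling (-0.26, 0.337), which called ceh-21 (0.82) and ceh-41 (0.74) higher in htp-3. Under that scaling all 3 were called lower than N2 in spo-11 (-1.40 for ceh-41, -1.51 for ceh-21 and -0.68 for ceh-39) and in htp-3 (-0.66, -0.69 and -0.95). Whether the 3 neighbours differ from each other in their change was not tested.

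The exception in the class was ceh-48 (chromosome IV, bases 6812108 to 6815607), an ONECUT gene expressed throughout the nervous system. It was close to the level of single reads in N2, at 0.0341, 0.210 and 0.188 TPM, and in dsb-2, at 0.163, 0.159 and 0.178. In spo-11 it reached 4.11, 2.88 and 5.43 TPM, and in htp-3 0.284, 0.298 and 0.538. Every spo-11 library stood far above every htp-3 library, and the htp-3 values were just above all N2 values. The change was 2.14 ± 0.17 in spo-11 (adjusted p = 3.35e-08). In htp-3 it was 0.26 on this scale (adjusted p = 0.199). Limma-voom on reads rebuilt from the deposited values called it at a minimum of 5 reads in 3 libraries (1.54, adjusted p = 0.0439). That minimum was added after the data were seen, and limma-voom on the genes of the main test did not call it. With a pseudocount of 0.1 it was called (1.01, adjusted p = 0.0357). Against spo-11 it was lower in htp-3 by -1.88 ± 0.17 (adjusted p = 2.84e-07), the lowest value of the set in that comparison. The summed pan-neuronal markers differed between spo-11 and htp-3 in the same direction, and 12 of 14 tested were lower in htp-3.

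**Figure D3:**
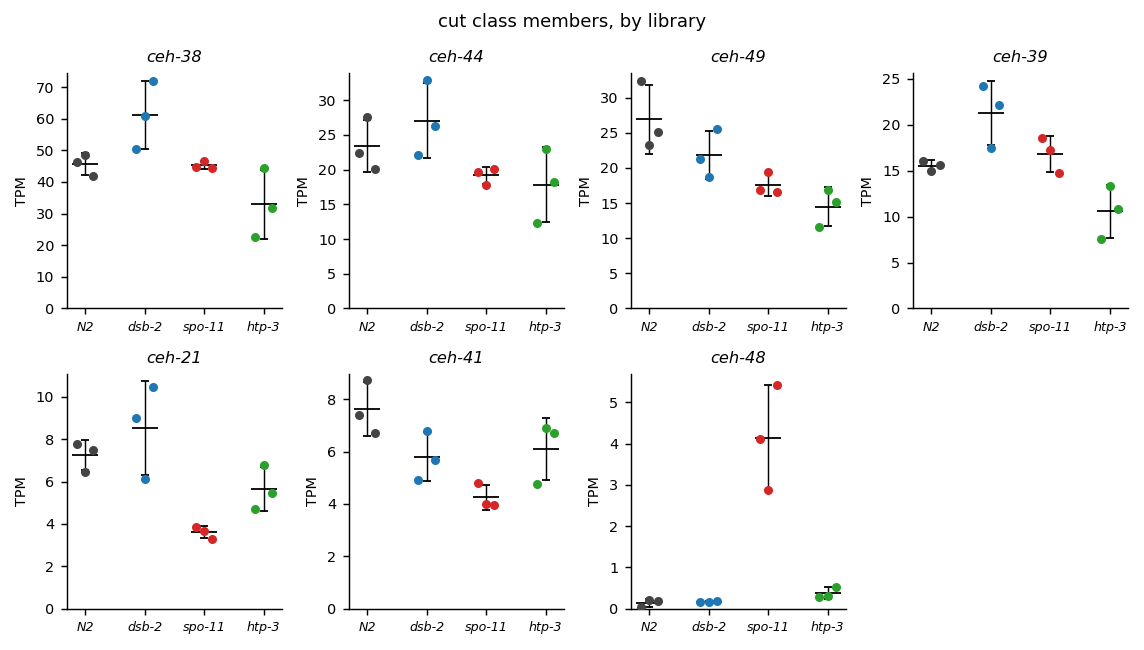
The TPM of each of the 7 cut class genes is plotted by library, with points for the 3 libraries of a strain and bars for the mean ± SD. The panels show ceh-48 near 0 outside spo-11, ceh-49 lower than N2 in spo-11 and htp-3, and ceh-38 and ceh-39 with their lowest mean in htp-3 (32.9 and 10.6 TPM).

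The OTX relative ceh-37 (chromosome X, bases 14197373 to 14209153), which specifies an olfactory neuron class, held 1.12, 1.37 and 1.03 TPM in N2 and 1.98, 1.98 and 1.51 in dsb-2. It was at 8.86, 9.35 and 7.99 TPM in spo-11 and at 3.63, 3.50 and 3.17 in htp-3. The 4 strains formed 4 separate ranges, in the order N2, dsb-2, htp-3, spo-11. The change was 2.16 ± 0.17 in spo-11 (adjusted p = 2.79e-08), 1.03 ± 0.17 in htp-3 (0.000217) and 0.37 in dsb-2 (0.460), and htp-3 was lower than spo-11 by -1.13 ± 0.17 (5.14e-05).

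The LIM gene ceh-14 (chromosome X, bases 7528616 to 7532732), needed for the thermosensory AFD neurons, held 0.454, 0.644 and 0.805 TPM in N2 and 0.703, 0.764 and 1.29 in dsb-2. Its spo-11 libraries held 4.76, 3.13 and 6.28 TPM and its htp-3 libraries 2.93, 2.22 and 3.59. Both strains lay above all N2 and dsb-2 libraries and overlapped with each other. The change was 1.78 ± 0.22 in spo-11 (adjusted p = 2.84e-06) and 1.25 ± 0.22 in htp-3 (0.000338). The difference between htp-3 and spo-11 was -0.53 (adjusted p = 0.0628). It was called with the replicate number as a block (0.0304), with a pseudocount of 5 (0.0361), without spo-11 replicate 2 (0.0117) and without htp-3 replicate 3 (0.0432).

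Both tested genes of the sine oculis class rose in spo-11, where 55.6% of all genes tested rose. Both had an N2 mean under 1 TPM and passed the minimum through higher values in other strains, so this count supports nothing. The gene ceh-32 (chromosome V, bases 11701764 to 11705400), which acts in the head, held 0.430, 1.02 and 0.977 TPM in N2, 4.71, 2.66 and 3.46 in spo-11, and 1.11, 1.05 and 1.72 in htp-3. The htp-3 libraries were all above N2, and all below spo-11. Its change was 1.34 ± 0.20 in spo-11 (adjusted p = 2.26e-05) and 0.35 in htp-3 (0.152), and htp-3 was lower than spo-11 by -0.995 ± 0.20 (0.000845). The other gene of this class tested, ceh-34, which specifies pharyngeal neurons, changed by 1.17 in spo-11 (adjusted p = 2.97e-05). In htp-3 its difference was 0.43 (0.0548), called with limma-voom (0.0457), with a pseudocount of 0.1 (0.0177), with only the compared strains in the fit (0.0181) and without htp-3 replicate 2 (0.0344).

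Among Antennapedia-like and NK genes outside the Hox cluster, 5 of 16 were tested, and 2 rose in spo-11 and 3 in htp-3. Of all genes tested, 55.6% rose in spo-11 and 39.5% in htp-3. Among the 5, ceh-19, ceh-30 and ceh-51 had an N2 mean under 1 TPM, so the counts support nothing on their own. The Distal-less relative ceh-43 (chromosome III, bases 4446637 to 4449943) held 1.97, 2.21 and 2.53 TPM in N2, 10.1, 3.97 and 5.40 in spo-11, and 2.02, 3.41 and 3.46 in htp-3. All spo-11 values exceeded all values of the other strains, and the first spo-11 library stood apart from the other 2. The change was 1.13 ± 0.26 in spo-11 (adjusted p = 0.000944) and was not called under median-ratio scaling (0.47, adjusted p = 0.0621). In htp-3 it was lower than in spo-11 by -0.86 (adjusted p = 0.0129). That difference was lost without spo-11 replicate 1 (0.0784), without htp-3 replicate 1 (0.0672) and under median-ratio scaling (0.0732).

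The mesoderm gene ceh-51, which acts in the embryo downstream of tbx-35, had a mean of 0.105 ± 0.0776 TPM in N2, 2.05 ± 0.439 in spo-11 and 0.801 ± 0.214 in htp-3. It rose by 1.46 in spo-11 (adjusted p = 8.14e-07) and by 0.70 in htp-3 (0.00198). Its 2037 bases lie wholly inside emb-4 on the opposite strand, whose mean was 25.3 TPM in N2, 43.6 in dsb-2, 22.9 in spo-11 and 27.1 in htp-3. The part of emb-4 reads in the ceh-51 values was not tested. Of 12 zygotic embryo markers, 5 were tested. Of these, 4 rose in spo-11, and in htp-3 3 rose and 1 fell. The 12 summed to 6.42 to 6.67 TPM for N2, 6.10 to 6.68 for dsb-2, 19.2 to 29.6 for spo-11 and 8.26 to 9.59 for htp-3. Among them med-1 and tbx-35 were listed at 0 in all N2 and dsb-2 libraries but not in all libraries of spo-11 or htp-3, and the part of embryos in these values was not tested.

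The BarH relative ceh-30 (chromosome X, bases 3063585 to 3065551), known for keeping male-specific CEM neurons alive, was the gene called higher in htp-3 than in spo-11. It held 0.437, 0.838 and 0.687 TPM in N2, 0.596, 0.953 and 0.618 in dsb-2, 0.801, 1.15 and 1.28 in spo-11, and 2.66, 1.81 and 2.41 in htp-3. Every htp-3 library exceeded every other library, while the spo-11 values overlapped with N2. The change was 0.99 ± 0.17 in htp-3 (adjusted p = 0.000256) and 0.33 in spo-11 (0.0867). It was higher in htp-3 than in spo-11 by 0.66 ± 0.17 (adjusted p = 0.00429). The pharyngeal neuron gene ceh-19 rose in htp-3 by 0.58 (adjusted p = 0.0180), a call lost without N2 replicate 1 (0.0824), htp-3 replicate 1 (0.0835) or htp-3 replicate 3 (0.0522) and under median-ratio scaling (0.0816).

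Of 23 homeobox genes placed in no class, 15 were tested, and 7 rose and 2 fell in spo-11 while 4 rose and 3 fell in htp-3. Of all genes tested, 55.6% rose and 22.1% fell in spo-11, and 39.5% rose and 19.7% fell in htp-3. Among the 15, ceh-62, ceh-63 and ceh-89 had an N2 mean under 1 TPM and passed the minimum through higher values in other strains. The 7 that rose in spo-11 were ceh-62, ceh-63, ceh-79, ceh-88, ceh-89, ceh-93 and ceh-99, with changes between 0.67 (ceh-99) and 1.63 (ceh-62). The gene ceh-88 (chromosome IV, bases 17329192 to 17330737) held 4.07, 5.57 and 3.41 TPM in N2, 10.3, 7.18 and 8.92 in spo-11, and 8.62, 9.22 and 11.2 in htp-3. Both strains lay above N2 and overlapped with each other. The change was 0.88 ± 0.26 in spo-11 (adjusted p = 0.00596), not called under median-ratio scaling (0.16, 0.479), and 1.01 ± 0.26 in htp-3 (0.00416). The spo-11 calls of ceh-93 and ceh-99 were also lost under that scaling (0.12 and 0.0025), and that of ceh-99 without N2 replicate 3 (0.0586).

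Genes of this group that fell included neighbours on chromosome II. The genes ceh-82 (bases 1732276 to 1733291) and ceh-83 (1733718 to 1736533) lie 426 bases apart. The values of ceh-82 were 2.47, 3.50 and 2.23 TPM in N2, 1.29, 1.10 and 1.44 in spo-11, and 0.402, 1.86 and 0.840 in htp-3, so all libraries of both strains lay below N2. Its change was -0.70 ± 0.23 in spo-11 (adjusted p = 0.0111), lost without N2 replicate 2 (0.0549), and -0.93 ± 0.23 in htp-3 (0.00327).

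For ceh-83 the values were 16.5, 17.8 and 13.7 TPM in N2, 14.5, 12.8 and 10.5 in spo-11, and 7.71, 12.1 and 9.81 in htp-3. Only the htp-3 libraries were clear of N2, with a change of -0.66 ± 0.22 (adjusted p = 0.0176) that was lost without N2 replicate 1 (0.0510), N2 replicate 2 (0.0584) or htp-3 replicate 1 (0.0751). Also on chromosome II, ceh-58 (bases 10367741 to 10369597) went from 20.998, 17.045 and 17.7 TPM in N2 to 8.19, 13.9 and 12.1 in htp-3. All 3 htp-3 values were under the N2 values, with a change of -0.69 ± 0.22 (adjusted p = 0.0151) that was lost without N2 replicate 1 (0.0615) or htp-3 replicate 1 (0.0720). In spo-11 ceh-58 was at 14.1, 15.3 and 12.1 TPM, a difference of -0.40 (0.104).

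A pair of the 5 highest homeobox genes in N2 belong to the same group. The gene ceh-92 (chromosome III, bases 11581600 to 11589133) held 16.6, 25.3 and 21.4 TPM in N2, 22.96, 32.6 and 34.8 in dsb-2, 9.36, 11.3 and 12.9 in spo-11, and 8.62, 22.6 and 12.1 in htp-3. Its spo-11 libraries were all below N2, and 1 of 3 htp-3 libraries lay inside the N2 range. The change was -0.85 ± 0.29 in spo-11 (adjusted p = 0.0140), lost when N2 replicate 2 (0.0599) or spo-11 replicate 1 (0.0576) was left out. In htp-3 it was -0.60 (0.0844), called with limma-voom (0.0350), under median-ratio scaling (0.00453) and without htp-3 replicate 2 (0.00425). The gene ceh-100 (chromosome II, bases 12582179 to 12603680) held 15.3, 23.1 and 21.6 TPM in N2, 22.2, 31.9 and 41.4 in dsb-2, 12.4, 18.8 and 15.7 in spo-11, and 11.98, 27.7 and 16.6 in htp-3. Its ranges overlapped with N2 in all 3 mutant strains, and it was called only under median-ratio scaling, lower in spo-11 (-1.12, adjusted p = 0.00193).

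A split at a mean of 10 TPM over the 12 libraries was chosen after the values were seen and is given as a description. Of 10 genes at or above it, 1 rose and 2 fell in spo-11, and 1 rose and 4 fell in htp-3, and the riser in both was ceh-20. Of the 28 genes below it, 19 rose and 3 fell in spo-11, and 14 rose and 1 fell in htp-3. Of these 28, 12 had an N2 mean under 1 TPM and passed the minimum through strains where they are high, which leaves few ways to fall. Among the other 16, 9 rose and 3 fell in spo-11, and 6 rose and 1 fell in htp-3. A difference by level was also seen over all genes tested, which were not limited by their N2 level. Their shares below 10 TPM therefore include genes with few ways to fall and are not a like comparison for the 16. At or above 10 TPM 31.01% rose and 37.9% fell in spo-11 and 27.4% and 34.3% in htp-3, while below it 84.8% rose and 3.19% fell in spo-11 and 53.97% and 2.25% in htp-3. One library weighed on the upper group: htp-3 replicate 1 was the lowest of the 3 htp-3 libraries for 10 of these 10 genes and the lowest of all 12 libraries for 9. Without it 2 homeobox genes in place of 5 were called lower in htp-3. The calls lost, of ceh-39, ceh-58 and ceh-83, were also lost without N2 replicate 1, so this loss was not particular to htp-3 replicate 1.

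**Figure D4:**
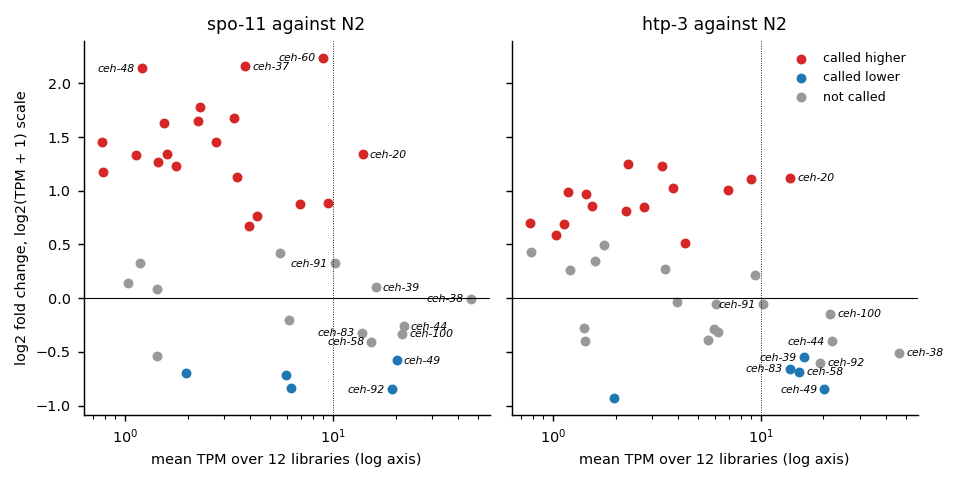
The mean TPM over the 12 libraries (log axis) is plotted against the log2(TPM + 1) fold change of the 38 tested genes, for spo-11 and for htp-3 against N2, with colour giving the call and a dotted line at 10 TPM. Right of the line ceh-20 is the single gene called higher in each panel.

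Of the 17 genes on chromosome X, 11 were tested, and 6 rose and 2 fell in spo-11 while 5 rose and 1 fell in htp-3. On the autosomes 27 of 49 were tested, and 14 rose and 3 fell in spo-11 while 10 rose and 4 fell in htp-3. Under median-ratio scaling 5 rose and 3 fell on X in spo-11 and 5 and 4 in htp-3, and on the autosomes 10 rose and 11 fell in spo-11 and 8 and 10 in htp-3. Beside the shares of all genes given above, neither set of counts is read as particular to X. Summed levels on X were 49.1 to 53.5 TPM for N2, 51.7 to 59.3 for dsb-2, 82.9 to 102 for spo-11 and 48.4 to 63.5 for htp-3.

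The remaining 28 genes did not reach the minimum level, and each of them was above 0 in at least 1 library. All 3 spo-11 libraries were above all 3 N2 libraries for 15 of them and below for none, while 53.2% of all genes under the minimum were above and 0.991% below. In htp-3 the 3 libraries were above N2 for 6 and below for none, beside 21.5% and 1.18% of all such genes. In dsb-2 they were above for 2, ceh-6 and ceh-16, and below for none, beside 3.49% and 2.43%.

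Reads rebuilt from the deposited values allowed a test of 14 of the 28, with a minimum of 5 reads in 3 libraries that was added after the data were seen. A gene that reaches this minimum through the spo-11 libraries had to be higher there, so the counts describe these 14 and support nothing. With limma-voom 13 of the 14 rose in spo-11, where 58.9% of all genes tested rose and 19.8% fell. In htp-3 3 of the 14 rose (ceh-16, ceh-27 and ceh-76), where 38.5% of all genes rose and 18.7% fell. The NK gene ceh-22, which directs pharyngeal muscle, was listed at 0.0202, 0.0226 and 0.0554 TPM in N2, 0.292, 0.264 and 0.340 in spo-11, and 0.0419, 0.0440 and 0.0438 in htp-3. Only its spo-11 libraries were clear of N2, at a limma-voom log2 fold change of 2.90 ± 0.54 (adjusted p = 0.000147). All 4 pharyngeal muscle markers rose in both strains, with sums of 1.78 to 2.08 TPM for N2, 2.65 to 2.89 for dsb-2, 42.3 to 65.3 for spo-11 and 6.58 to 14.1 for htp-3, and the part of that tissue in ceh-22 was not tested.

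The engrailed relative ceh-16, known for its work in the seam cells of the skin, rose by 2.39 ± 0.52 in spo-11 (adjusted p = 0.000639) and by 1.61 ± 0.54 in htp-3 (0.0204). It was listed at 0.170, 0.152 and 0.125 TPM in N2, 0.371, 0.225 and 0.354 in dsb-2, 1.44, 0.646 and 0.654 in spo-11, and 0.636, 0.371 and 0.517 in htp-3. All 3 mutant strains were above N2 in every library. It shares 3655 bases with C13G5.2 on the opposite strand, a gene at 120 TPM in N2, 109 in dsb-2, 54.9 in spo-11 and 62.5 in htp-3. The part of C13G5.2 reads in the ceh-16 values was not tested. The paired-like gene ceh-10, which sets the identity of AIY interneurons and CAN cells, rose in spo-11 by 2.03 ± 0.47 (adjusted p = 0.00106), from 0.263, 0.131 and 0.455 TPM in N2 to 1.56, 0.869 and 0.985. It lies inside polq-1 on the opposite strand, at 17.6 TPM in N2 and 11.8 in spo-11. The gene ceh-23, which follows egl-5 at a distance of 22466 bases, rose by 2.28 ± 0.83 in spo-11 (0.0197), at 0.323 ± 0.132 TPM against 0.0519 ± 0.0194 in N2. The fold changes of ceh-16, ceh-10 and ceh-23 are those of limma-voom. These genes were chosen for mention after their values were seen.

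In the comparison between the mutants, the low genes had shares no larger than those of other genes. All 3 htp-3 libraries were below all 3 spo-11 libraries for 9 of the 28 and above for none, beside 39.7% and 1.85% of all genes under the minimum. By limma-voom 4 of the 14 tested were lower in htp-3 and none higher, beside 40.6% and 6.71% of all genes. They were ceh-22 (-2.53 ± 0.52, adjusted p = 0.000964), ceh-10 (-1.48, 0.0130), ceh-23 (-2.10, 0.0457) and the POU gene ceh-6 (-1.44, 0.00644), which acts in the excretory cell. The gene ceh-6 stood at 0.713, 0.618 and 0.866 TPM in spo-11 and at 0.229, 0.218 and 0.369 in htp-3.

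Where htp-3 and spo-11 animals were compared directly, 1 of the 38 homeobox genes was higher in htp-3 (ceh-30) and 16 were lower (2.63% and 42.1%). Of all genes tested, 8.1% were higher and 38.6% lower. The median was -0.41 for the homeobox genes and -0.32 for all genes. Under median-ratio scaling 5 were higher and 8 lower, beside 22.4% and 26.4% of all genes. The 8 that were lower under both scalings were ceh-32, ceh-34, ceh-37, ceh-48, ceh-51, ceh-60, ceh-62 and mab-5. With the replicate number as a block, 1 gene was higher and 18 lower.

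**Figure D5:**
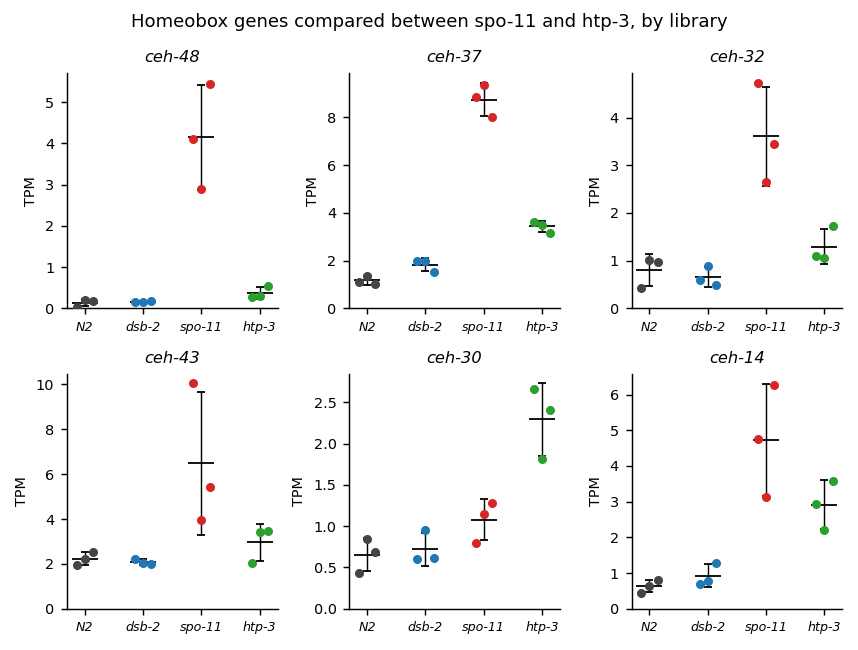
The TPM of 6 genes is plotted by library in the 4 strains, with points for the 3 libraries of a strain and bars for the mean ± SD. The htp-3 points of ceh-30 are above all spo-11 points, those of ceh-48, ceh-37, ceh-32 and ceh-43 are below them, and those of ceh-14 overlap with them.

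None of the 38 genes was called in dsb-2 animals by limma, in either direction, where 0.19% of all genes were called higher and 0.0733% lower. Limma-voom on rebuilt reads called none either, beside 0.154% higher and 0.086% lower of all genes, and neither did median-ratio scaling, beside 0.256% and 0.11%. At an unadjusted p under 0.05, 2 of the 38 passed, beside 1448 of all 13650 genes, and the lowest adjusted p among the 38 was 0.460. Some genes lay above N2 in all 3 dsb-2 libraries without passing the test, such as ceh-38 (0.40) and ceh-37 (0.37), described above. Another was ceh-39, with means of 21.3 ± 3.49 TPM in dsb-2 and 15.6 ± 0.558 in N2. The summed level of the set was 283 to 350 TPM against 257 to 296 for N2, ranges that overlap.

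A list of 36 other homeobox genes gives the wider family for comparison, and 21 of them were tested. Of these 21, psa-3, unc-39, mec-3, vab-7, cog-1, zag-1, alr-1 and pros-1 had an N2 mean under 1 TPM. They passed the minimum through higher values in other strains, so counts over the 21 support nothing on their own. In spo-11 18 rose and 1 fell, and in htp-3 14 rose and 1 fell, with medians of 1.22 and 0.56, beside 55.6% and 22.1% of all genes in spo-11 and 39.5% and 19.7% in htp-3. Under median-ratio scaling 14 rose and 3 fell in spo-11 and 13 and 2 in htp-3. None was called in dsb-2 by limma, and the smallest p there belonged to zfh-2 (0.52) and unc-62 (0.43), each at an adjusted p of 0.455, and irx-1 (0.29, 0.606). The gene that fell in both strains was pal-1, the caudal relative that patterns the posterior of the embryo, with means of 155 TPM in N2, 103 in spo-11 and 85.5 in htp-3.

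The smallest p values in spo-11 belonged to the touch neuron gene mec-3 (1.62 ± 0.16, adjusted p = 3.26e-07), the aristaless relative alr-1 (1.29 ± 0.14, 8.41e-07) and dve-1 (2.32 ± 0.28, 1.86e-06). In htp-3 they belonged to the posterior Hox genes php-3 (1.60 ± 0.25, 0.000148) and nob-1 (1.29 ± 0.21, 0.000211), followed by dve-1 (1.67 ± 0.28, 0.000217). The posterior Hox gene php-3 was at 12.6 ± 2.97 TPM in htp-3 and 3.57 ± 1.46 in N2, and nob-1 at 6.28 ± 0.324 and 2.04 ± 0.764.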

How the data were processed

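Polyadenylated RNA of 12 whole-animal libraries was analysed, 3 for each of 4 strains. Per the file headers, each deposited table gives TPM and RPKM values for 20222 genes with their positions; the RPKM column and the authors' expression value column were identical. Per the submitters' processing notes, reads were placed on WBcel235. Which aligner and counter were used, and whether strand was used, is not given in the sources used here. Positions follow the deposited tables, the first base of a chromosome being 1.

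Reads were not among the deposited columns. They were rebuilt from the steps between low RPKM values, which also gave each depth. Of 18042 genes seen in 4 or more libraries, 18041 became whole numbers to within 0.05 reads. The main test was limma 3.58.1 (R 4.3.3), with its prior variance following the mean level, on log2(TPM + 1). It took 13650 genes that reached 1 TPM in 3 or more libraries. All 12 libraries entered 1 fit with a mean per strain, with Benjamini-Hochberg adjustment of p over all genes tested. The steps were tested on simulated data for spo-11 against N2: over 13650 genes, 60.0% of genes given a log2 change of 1 and 98.2% of genes given a log2 change of 2 were called. Summed over the simulated sets, 28 unchanged genes were called. Few genes were changed, and none of those lowest in N2, while most genes tested were called in the data. The rates therefore test the steps and are not recovery rates for these data.

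Deviations of samples with the same replicate number had correlations across genes of 0.12, 0.44 and 0.23 for htp-3 with spo-11. For dsb-2 with N2 they were 0.35, 0.39 and 0.07, so this was not particular to htp-3 and spo-11. They were 0.14, 0.04 and 0.34 for spo-11 with N2, and -0.10, 0.11 and 0.17 for htp-3 with N2. The labels give no pairing. The members and the gene lists were chosen with earlier results of these data known. Named in full were the 4 Hox cluster genes, the 5 genes highest in N2, and up to 6 called genes in each direction per mutant (5 between mutants) whose libraries did not overlap and whose higher mean was at least 1 TPM. Genes named beyond these were chosen after their values were seen. Alternatives tried were median-of-ratios scaling, other minimum levels and pseudocounts, a replicate block, each library left out, only the strains compared, RPKM, and limma-voom on rebuilt reads. No sequences are shown, since no sequence source was used here.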

Additional observations from a re-analysis of the deposited data

How the results depend on the processing

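Calls in dsb-2 stayed at 0 under every alternative run. In spo-11 the count of genes called higher (20) was 36 with no minimum level, 8 with a minimum of 5 TPM and 33 with limma-voom at 5 reads, and 19 to 20 with 1 library left out. The genes called lower in spo-11 (5) numbered 14 under median-of-ratios scaling and 3 to 6 with 1 library left out (3 without N2 replicate 2). In htp-3 the count called higher (15) was 6 with a minimum of 5 TPM and 13 to 16 with 1 library left out. The count called lower (5) was 14 under median-of-ratios scaling and 2 to 8 with 1 library left out: 2 without N2 replicate 1, 3 without N2 replicate 2, 2 without htp-3 replicate 1 and 8 without htp-3 replicate 2. For htp-3 against spo-11 the count called higher (1) was 5 under median-of-ratios scaling, 0 with a minimum of 5 TPM, and 2 with limma-voom at either read minimum; it was 1 to 3 with 1 library left out (3 without htp-3 replicate 1, 2 without htp-3 replicate 2). The count called lower there (16) was 8 under median-of-ratios scaling, 6 with a minimum of 5 TPM and 11 to 19 with 1 library left out. With a minimum of 5 TPM 21 of the genes were tested, and with none 66, which changes these counts by construction.

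Under median-of-ratios scaling the spo-11 changes of ceh-39 (0.10 to -0.68) and ceh-5 (0.09 to -0.42) turned and were called lower, while other genes changed sign without a call on either scale, in spo-11 for example ceh-91 (0.32 to -0.44), ceh-19 (0.14 to -0.22) and ceh-40 (0.42 to -0.30). With only the compared strains in the fit, the htp-3 calls of lin-39 (adjusted p = 0.0542) and ceh-39 (0.0833) were lost. Replicate block: the fit with the replicate number as a block gave 20 higher and 6 lower in spo-11, 16 and 7 in htp-3, 1 and 18 for htp-3 against spo-11, and 0 and 0 in dsb-2. In htp-3 it called ceh-34 (adjusted p = 0.0407), ceh-38 (0.0328) and ceh-92 (0.0262). The correlations of same-numbered samples were 0.14, 0.04 and 0.34 for spo-11 with N2, -0.10, 0.11 and 0.17 for htp-3 with N2, and 0.35, 0.39 and 0.07 for dsb-2 with N2. The cause of these differences was not tested. Depth limits the 28 genes under the minimum, where single reads make up most of the N2 values.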
